A study of Mus musculus with 16 samples.

Results

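Transcript levels of 40 endothelial cell genes were examined in mouse lungs given bleomycin, which injures the lung and is used to model fibrosis, or phosphate-buffered saline (PBS). The genes were listed by name from knowledge of the cell type, with earlier results of these data known. All 40 were found among the 20863 genes named on the array. Each gene was represented by the spot with the highest mean signal over all arrays. By class, 21 are general endothelial genes, 8 capillary, 4 arterial, 3 venous or large vessel and 4 lymphatic.

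Whole-lung RNA of 16 C57BL/6 samples was measured on a single-colour Agilent array, with 1 array per sample. Bleomycin at 1 unit/kg followed a CAV1 target site blocker (CAV1 TSB) in 6 samples and a Control TSB in 6 samples. PBS followed the CAV1 TSB in 2 samples and the Control TSB in 2 samples. Such a blocker is a short oligonucleotide that pairs with the place in 1 transcript, here Cav1, where a microRNA would bind. Per the labels, all mice were 9 to 12 weeks old and received their blocker into the trachea 4 and 2 days before and again 4 days after bleomycin or PBS. The CAV1 TSB dose was 5 mg/kg, while the dose of the Control TSB and the time of lung collection were not given in the sources used here. Every group therefore carried an intratracheal oligonucleotide, and no group had bleomycin alone. The labels do not state that each sample was a separate animal, so the p-values below measure the spread between these samples.

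Endothelial cells line all blood and lymph vessels. In the alveolus they form a dense capillary bed with a gas-exchange type, the aerocyte, and a general capillary type. Their identity and survival depend on receptors for vascular endothelial growth factors, angiopoietins and circulating bone morphogenetic proteins, and on SOX, ETS and KLF transcription factors.

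Values are log2 signals as deposited, with the same distribution in every array (median 6.51 to 6.52). Lung was recognisable in all arrays: the mean over 8 alveolar epithelial markers was 14.85 to 15.33. General endothelial genes were bright, with array means of 12.57 to 13.19, and Prox1 was the only one of the 40 genes whose group means, 6.12 to 6.22, lay below the array median. Some arrays stood apart. PBS Control TSB array 2 had the lowest median correlation with the other arrays (0.979), and bleomycin CAV1 TSB array 6 differed from its group in some of the same endothelial genes. Flt4, Foxf1, Tie1, Eng, Pecam1 and Gja4 were over 0.5 log2 units higher, and Flt1, Sox7 and Lyve1 over 0.5 lower, in both arrays, compared with PBS Control TSB array 1 and with the median of the other 5 bleomycin CAV1 TSB arrays. Bleomycin CAV1 TSB array 1 had the fewest macrophage transcripts of its group (mean 11.34 over 7 markers, against 11.84 to 12.09 in the other 5 arrays) and the highest general endothelial mean, 12.95. Its macrophage mean was also below all PBS arrays (11.42 to 11.57), and its fibroblast mean, 13.57, lay within their range (13.27 to 13.77). Skeletal muscle transcripts were low in 5 arrays (6.91 to 8.25) and high in 11 (9.99 to 12.51), a split shared by stratified squamous epithelial transcripts (6.65 to 7.06 and 10.68 to 11.84). The 5 low arrays were both PBS CAV1 TSB arrays, bleomycin CAV1 TSB array 3 and bleomycin Control TSB arrays 2 and 6. The split therefore crossed both bleomycin groups but divided the PBS groups by blocker: muscle markers averaged 6.91 and 7.09 in PBS CAV1 TSB lungs, against 12.51 and 10.14 in PBS Control TSB lungs. The mean over the 40 endothelial genes was 11.64 to 12.04 in the 5 arrays and 11.59 to 12.04 in the 11.

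**Figure D1:**
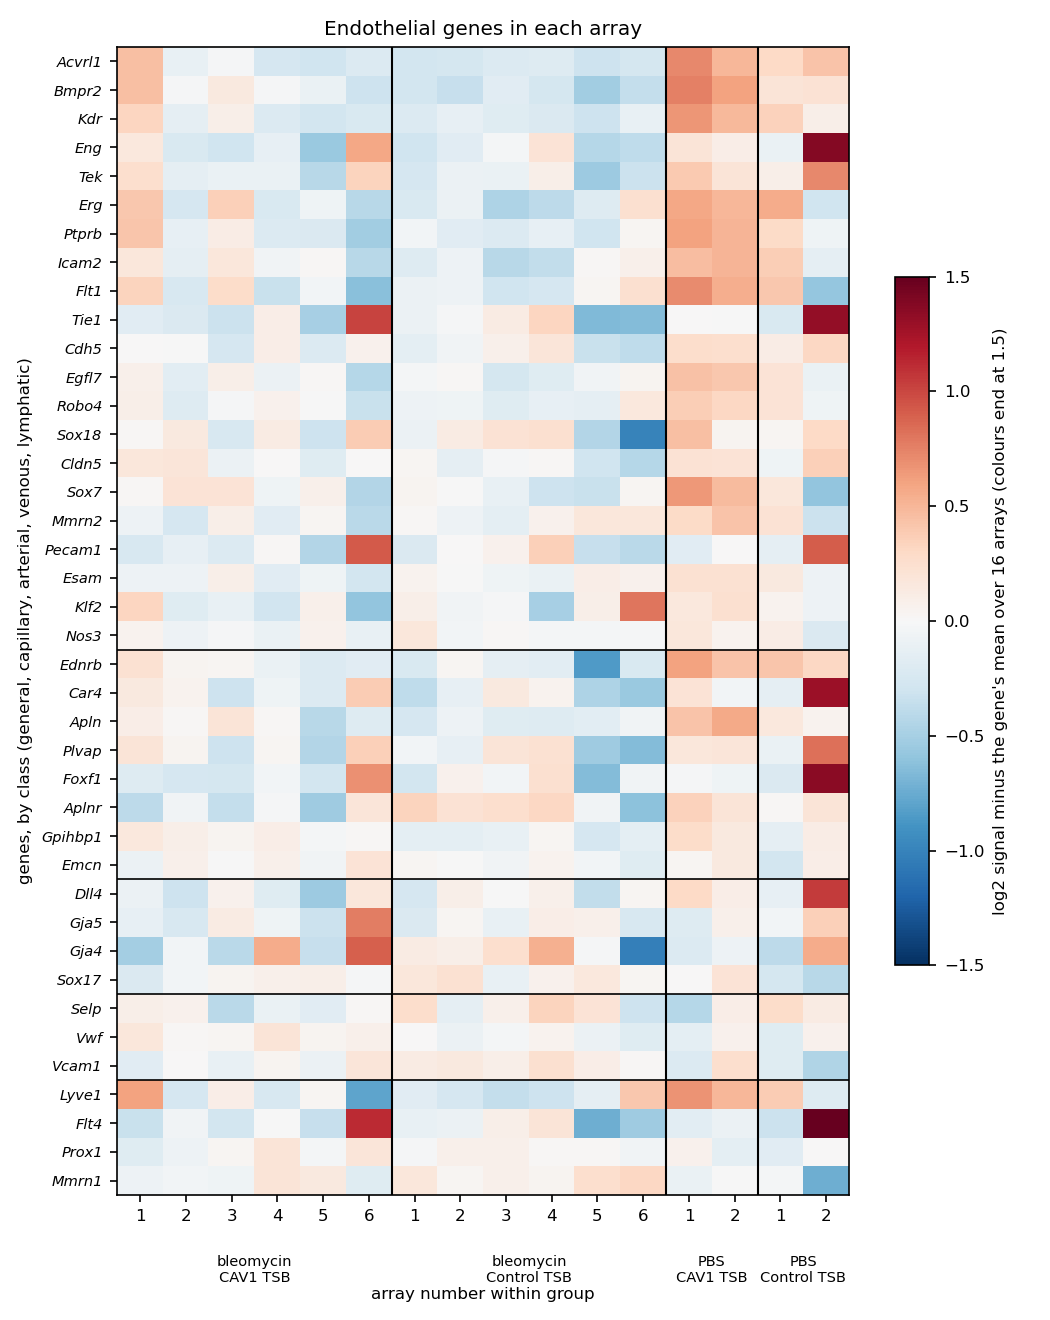
Log2 signal of each of the 40 endothelial genes (rows, by class) in each of the 16 arrays (columns, by group and array number), as the difference from the gene's mean over all arrays; larger differences take the end colour of the scale. The PBS CAV1 TSB columns are mostly above the mean in the general class, and PBS Control TSB array 2 and bleomycin CAV1 TSB array 6 are the columns in which Flt4, Tie1, Eng and Pecam1 stand above the rest of their group.

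Bleomycin was first compared with PBS over both blockers, weighting them equally. Endothelial transcripts were lower in bleomycin lungs for 5 of the 40 genes, namely the BMP receptors Acvrl1 and Bmpr2, the VEGF receptor Kdr and the aerocyte genes Ednrb and Apln, and none was called higher. The 5 fell to between 0.638 and 0.755 of the PBS level. A change was called at a limma adjusted p under 0.05 over all 20304 genes tested; 12.5% of the 40 endothelial genes were called lower, beside 1.68% of all genes tested, and 0 were called higher, beside 4.25%. The estimate was negative for 33 of the 40 (82.5%), beside 48.1% of all genes, with a median of -0.29 beside 0.01. Because the 40 genes were chosen with earlier results of these data known, these shares describe the list and are not an independent test. In bulk lung RNA, fewer endothelial cells and less RNA per endothelial cell cannot be told apart.

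With arrays left out 1 at a time, the count stayed at 5 or 6 in 10 of 16 fits, and Acvrl1, Bmpr2 and Kdr stayed called in all 16. The count was 10 without bleomycin CAV1 TSB array 1, 8 without array 6 of that group, 10 without PBS Control TSB array 2 and 11 without PBS Control TSB array 1 (10 lower and Mmrn1 higher), 3 without PBS CAV1 TSB array 1 and 4 without PBS CAV1 TSB array 2. Over these 16 fits, 0.502% to 3.32% of all genes were called lower. Without PBS Control TSB array 2 the median over the 40 genes was -0.15. Leaving out both arrays that stood apart, a choice made after seeing the data, left 1 PBS Control TSB array and gave a median of -0.195. The 5 genes were then between -0.60 and -0.42. Flt1, Erg and Sox7 moved from -0.36, -0.45 and -0.23 to -0.55, -0.62 and -0.38, and Flt4 from -0.36 to 0.02. The PBS array left out was below the other of its group by 0.98, 0.86 and 0.77 for Flt1, Erg and Sox7, and above it by 1.98 for Flt4. Such moves therefore follow in part from the choice of arrays.

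Markers of other cell types differed between the same groups. Over all genes tested, 4.25% were called higher and 1.68% lower in this comparison. Of 7 macrophage and monocyte markers, 2 rose with bleomycin (Ms4a7 and Adgre1) and the array mean was 11.34 to 12.09 and 12.15 to 12.34 in bleomycin lungs with CAV1 TSB and Control TSB, against 11.42 to 11.47 and 11.55 to 11.57 in PBS lungs. Of 6 fibroblast markers, Col1a1, Col1a2 and Col3a1 rose and Pdgfra fell, and the array mean was 13.57 to 13.91 and 13.91 to 14.05 in bleomycin lungs, against 13.27 to 13.77 and 13.38 to 13.58 in PBS lungs. None of 8 alveolar epithelial and none of 10 pericyte and vascular smooth muscle markers was called. The adipocyte, lymphocyte and cardiac muscle lists had only negative estimates and no call. The median was -0.92 over 6 adipocyte markers (4 at an unadjusted p under 0.05), -0.42 over 5 lymphocyte markers (3 at that level) and -0.41 over 6 cardiac muscle markers (2 at that level). Adipocyte array means were 10.06 to 11.58 and 10.01 to 11.18 in bleomycin lungs with CAV1 TSB and Control TSB, against 11.17 to 11.79 and 11.48 to 11.91 in PBS lungs. Lymphocyte means were 9.99 to 10.71 and 10.07 to 10.60, against 10.59 to 10.67 and 10.73 to 10.97, and cardiac means 11.96 to 13.00 and 12.05 to 13.66, against 12.44 to 12.99 and 13.07 to 13.35. With the skeletal muscle mean as a covariate, the same 5 endothelial genes were called, beside 1.31% of all genes called lower. The part of the other cells in the endothelial values was not tested.

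**Figure D2:**
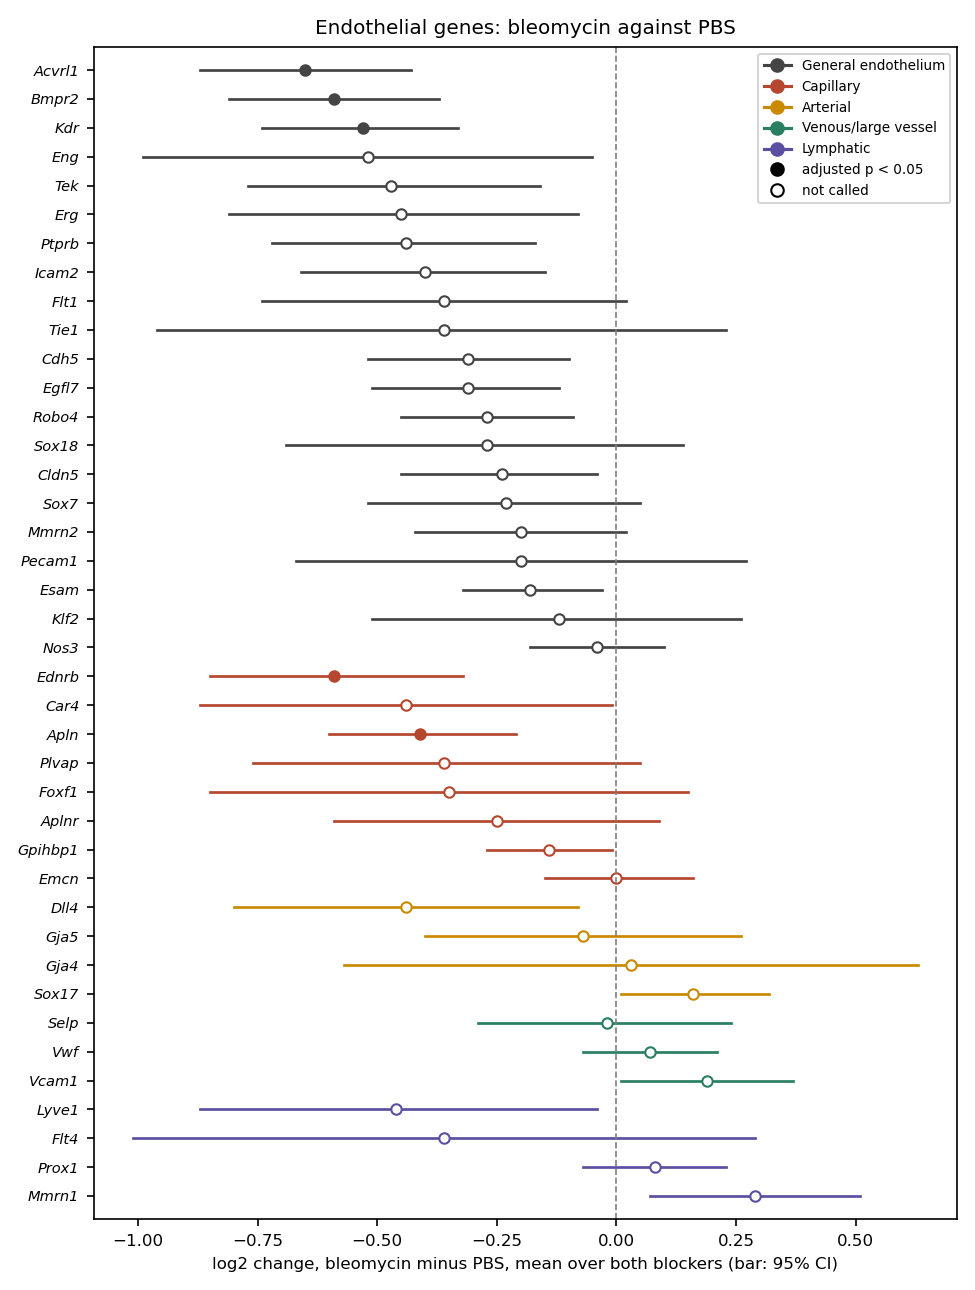
Log2 change (bleomycin minus PBS, mean over both blockers) of each of the 40 endothelial genes, with 95% confidence intervals, coloured by class; filled points passed an adjusted p of 0.05. All 21 general genes lie left of 0. Of the venous genes, Vwf and Vcam1 lie right of 0 and Selp left. Of the lymphatic genes, Mmrn1 and Prox1 lie right of 0 and Lyve1 and Flt4 left.

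Of the 40 genes, the BMP receptor Acvrl1 had the most negative estimate. In what follows, 3 values for a bleomycin group are its lowest, median and highest array, and 2 values for a PBS group are its 2 arrays. Acvrl1 (ALK1, the type I receptor for BMP9 and BMP10, chr15:101128522-101145336 in GRCm38.p6) had signals of 13.66, 13.80 and 14.41 with CAV1 TSB and 13.65, 13.70 and 13.77 with Control TSB after bleomycin, against 14.68 and 14.46 with CAV1 TSB and 14.26 and 14.39 with Control TSB after PBS. Of the 12 bleomycin arrays, 11 were below all PBS arrays, and CAV1 TSB array 1 exceeded both PBS Control TSB arrays. The change was -0.65 (SE 0.104, 95% CI -0.87 to -0.43, adjusted p = 0.00285), or 0.638 times the PBS level.

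Bmpr2, the type II receptor of the same complex (chr1:59764279-59878081), read 11.73, 12.03 and 12.49 with CAV1 TSB and 11.52, 11.73 and 11.87 with Control TSB after bleomycin, against 12.80 and 12.65 with CAV1 TSB and 12.24 and 12.26 with Control TSB after PBS. Each bleomycin group lay below the PBS group of its own blocker, and bleomycin CAV1 TSB array 1 again exceeded the PBS Control TSB arrays. Bmpr2 fell by 0.59 on the log2 scale (SE 0.103, adjusted p = 0.00394). Eng (endoglin), the co-receptor, read 12.23, 12.61 and 13.37 with CAV1 TSB and 12.36, 12.55 and 12.99 with Control TSB after bleomycin, against 12.98 and 12.88 with CAV1 TSB and 12.68 and 14.16 with Control TSB after PBS; PBS Control TSB array 2 alone exceeded 13.37, and the groups overlapped. The Eng estimate of -0.52 (SE 0.223) did not pass the test (adjusted p = 0.23).

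Kdr (VEGFR2, the main signalling receptor for VEGF-A, chr5:75932827-75979072) read 12.77, 12.88 and 13.37 with CAV1 TSB and 12.74, 12.85 and 12.94 with Control TSB after bleomycin, against 13.71 and 13.54 with CAV1 TSB and 13.40 and 13.14 with Control TSB after PBS. Within each blocker all bleomycin arrays were below both PBS arrays, and across blockers bleomycin CAV1 TSB arrays 1 and 3 reached the PBS Control TSB values. Kdr fell by 0.53 (SE 0.096, CI -0.74 to -0.33, adjusted p = 0.00493), and its 11 spots all gave negative estimates, between -0.55 and -0.33. Flt1 (VEGFR1, largely a VEGF trap) read 13.08, 13.57 and 14.04 with CAV1 TSB and 13.41, 13.62 and 13.95 with Control TSB after bleomycin, against 14.42 and 14.25 with CAV1 TSB and 14.11 and 13.12 with Control TSB after PBS. The PBS Control TSB arrays spanned nearly the whole range of the bleomycin arrays, and the estimate of -0.36 (SE 0.179) did not pass (adjusted p = 0.324).

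Of the 8 capillary genes, the aerocyte genes Ednrb and Apln fell. Ednrb (endothelin receptor B, chr14:103814615-103844508) read 9.93, 10.09 and 10.36 with CAV1 TSB and 9.28, 9.94 and 10.16 with Control TSB after bleomycin, against 10.74 and 10.56 with CAV1 TSB and 10.55 and 10.44 with Control TSB after PBS. It was the only one of the 40 genes with all 12 bleomycin arrays below all 4 PBS arrays, a separation that 0.433% of all genes tested had in that direction; 0 of the 40 genes had all bleomycin arrays above all PBS arrays (beside 1.04% of all genes), and the other 39 overlapped. Ednrb fell by 0.59 (SE 0.123, adjusted p = 0.011), a call lost without PBS CAV1 TSB array 1 (adjusted p = 0.0848).

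Apln (apelin, a peptide ligand made by aerocytes, chrX:48025146-48034853) read 10.44, 10.88 and 11.05 with CAV1 TSB and 10.60, 10.69 and 10.80 with Control TSB after bleomycin, against 11.29 and 11.43 with CAV1 TSB and 11.02 and 10.91 with Control TSB after PBS. Bleomycin arrays were below PBS arrays within each blocker and overlapped across them. Apln fell by 0.41 (SE 0.090, adjusted p = 0.0148), and the call was lost without PBS CAV1 TSB array 1 (adjusted p = 0.055) or array 2 (adjusted p = 0.0858). Car4 (carbonic anhydrase 4, the third aerocyte gene) read 11.81, 12.12 and 12.50 with CAV1 TSB and 11.56, 11.87 and 12.27 with Control TSB after bleomycin, against 12.32 and 12.08 with CAV1 TSB and 11.99 and 13.40 with Control TSB after PBS. PBS Control TSB array 2, at 13.40, stood above all others, and the estimate of -0.44 (SE 0.201) did not pass (adjusted p = 0.273).

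**Figure D3:**
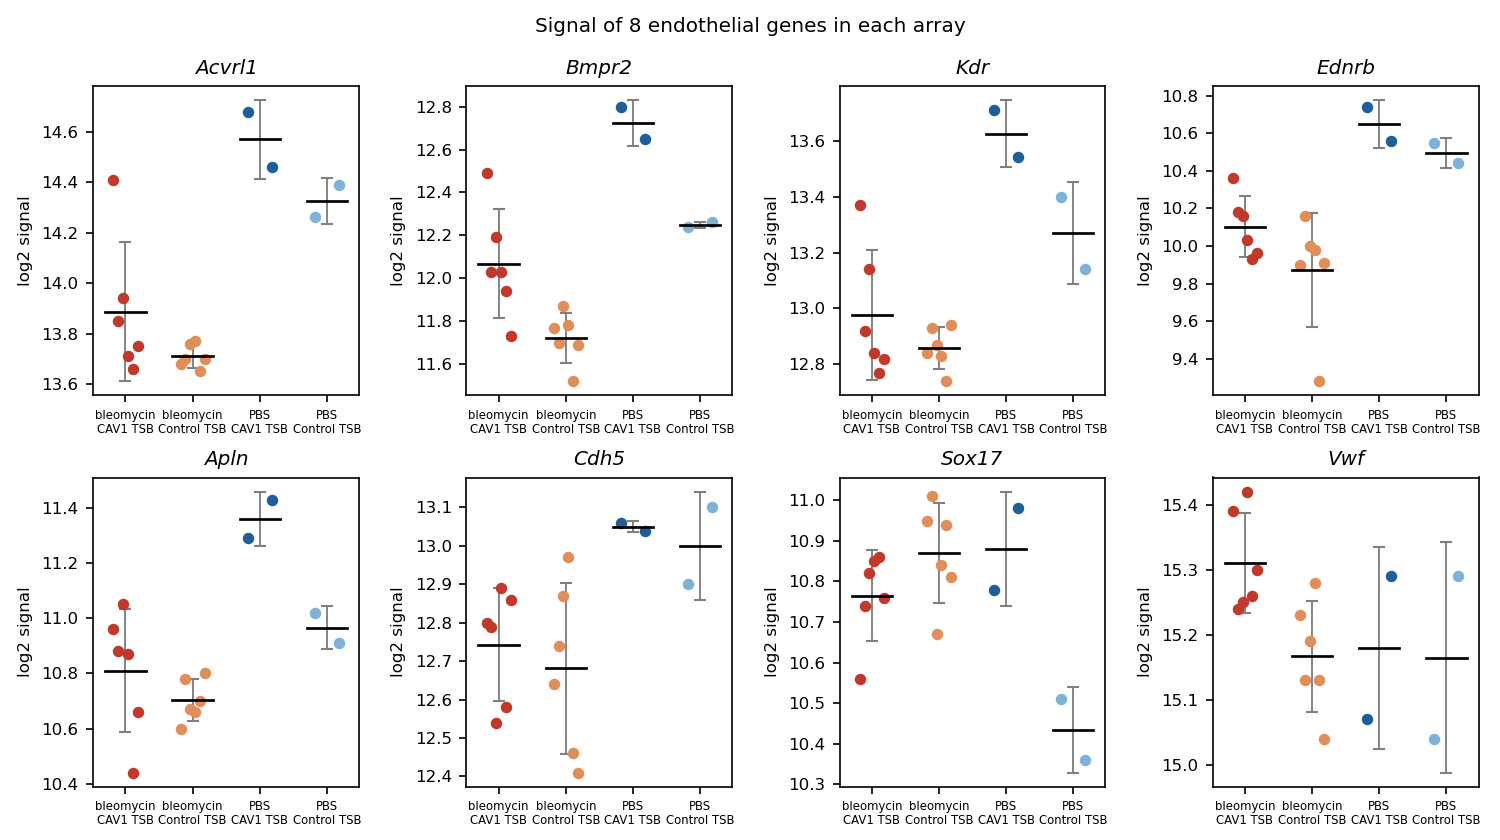
Log2 signal in each array (points) for 8 endothelial genes in the 4 groups, with the group mean (bar) and SD (whiskers); vertical axes differ between panels and do not start at 0. Acvrl1, Bmpr2, Kdr, Ednrb and Apln are lower in each bleomycin group than in the PBS group of the same blocker, while Vwf overlaps in all groups.

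Start regions of 4 of the genes that fell were taken from RefSeq (GRCm38.p6, 250 bases before to 50 after the transcript start, printed 5′ to 3′ on the gene's strand), to show what the called genes hold near their starts; 22 of the 40 genes had an entry. Capitals mark matches to AGGAAG or CGGAAG on either strand, letters found in binding sites of ETS factors such as ERG. The regions lie at chr14:103843652-103843951 (minus strand) for Ednrb, chrX:48034804-48035103 (minus) for Apln, chr5:75978406-75978705 (minus) for Kdr and chr1:59764029-59764328 (plus) for Bmpr2. Those of Ednrb and Kdr fall wholly within the gene spans printed above, so they flank an inner transcript start and not the outermost.
Ednrb: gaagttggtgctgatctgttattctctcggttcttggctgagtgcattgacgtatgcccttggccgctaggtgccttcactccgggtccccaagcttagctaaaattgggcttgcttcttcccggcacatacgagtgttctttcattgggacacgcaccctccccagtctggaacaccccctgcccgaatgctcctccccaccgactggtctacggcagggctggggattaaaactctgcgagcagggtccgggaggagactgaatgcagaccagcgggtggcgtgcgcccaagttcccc
Apln: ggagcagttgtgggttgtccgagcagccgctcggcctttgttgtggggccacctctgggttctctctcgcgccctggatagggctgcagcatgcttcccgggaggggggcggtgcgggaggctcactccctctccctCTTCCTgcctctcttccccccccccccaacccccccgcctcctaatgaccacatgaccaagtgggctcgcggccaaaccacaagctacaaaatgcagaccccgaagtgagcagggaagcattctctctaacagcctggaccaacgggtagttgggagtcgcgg
Kdr: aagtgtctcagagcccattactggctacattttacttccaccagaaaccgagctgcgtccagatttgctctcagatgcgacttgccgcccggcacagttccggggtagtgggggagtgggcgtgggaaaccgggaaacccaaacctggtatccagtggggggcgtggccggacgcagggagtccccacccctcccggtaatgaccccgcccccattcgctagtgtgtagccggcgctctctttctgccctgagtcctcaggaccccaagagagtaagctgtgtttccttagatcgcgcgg
Bmpr2: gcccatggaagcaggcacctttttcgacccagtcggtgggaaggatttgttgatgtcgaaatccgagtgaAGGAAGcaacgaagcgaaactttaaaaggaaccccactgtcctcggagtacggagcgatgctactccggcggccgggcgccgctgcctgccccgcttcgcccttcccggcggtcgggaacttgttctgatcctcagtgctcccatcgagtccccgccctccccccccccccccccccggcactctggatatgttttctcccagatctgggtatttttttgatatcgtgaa
Apln and Bmpr2 each held 1 match and Ednrb and Kdr held 0. Among 27 start regions of the endothelial genes 48.1% held a match, beside 46.5% of all 32851 in the table. SOX letters (ACAATG or ACAATA, either strand) were in 14.8% beside 19.7%, and the KLF letters CACACCC in 3.70% beside 7.95%. A match is a description of the sequence only.

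General capillary genes had no call. Aplnr (the apelin receptor) read 9.62, 9.95 and 10.34 with CAV1 TSB and 9.54, 10.39 and 10.49 with Control TSB after bleomycin, against 10.50 and 10.35 with CAV1 TSB and 10.18 and 10.35 with Control TSB after PBS, and the groups overlapped (change -0.25, adjusted p = 0.499). Gpihbp1, which anchors lipoprotein lipase on capillaries, read 13.85, 13.94 and 14.04 with CAV1 TSB and 13.63, 13.74 and 13.91 with Control TSB after bleomycin, against 14.16 and 14.03 with CAV1 TSB and 13.75 and 14.00 with Control TSB after PBS. The groups overlapped and its estimate was -0.14 (adjusted p = 0.261). Emcn (endomucin, a sialomucin of capillaries and veins) had an estimate of 0.00 (CI -0.15 to 0.16). Plvap (the diaphragm protein of fenestrae) and Foxf1 (a lung microvessel and mesenchymal transcription factor) had estimates of -0.36 and -0.35 with intervals that included 0. Over the 8 capillary genes the median was -0.35, and it was -0.14 without both arrays that stood apart.

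Among the general genes, estimates ran from -0.65 to -0.04 with a median of -0.31, and in 13 of 21 the unadjusted p was below 0.05. At that looser level 19 of all 40 genes were lower and 3 higher, beside 7.08% and 10.3% of all genes. Cdh5 (VE-cadherin, the junctional adhesion molecule of endothelium) read 12.54, 12.79 and 12.89 with CAV1 TSB and 12.41, 12.69 and 12.97 with Control TSB after bleomycin, against 13.06 and 13.04 with CAV1 TSB and 12.90 and 13.10 with Control TSB after PBS. The CAV1 TSB groups did not overlap whereas 1 Control TSB bleomycin array exceeded a PBS one, and the estimate of -0.31 did not pass (SE 0.10, adjusted p = 0.0861).

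Pecam1 (CD31, a pan-endothelial adhesion molecule) read 10.83, 11.11 and 12.19 with CAV1 TSB and 10.86, 11.17 and 11.63 with Control TSB after bleomycin, against 11.10 and 11.27 with CAV1 TSB and 11.13 and 12.18 with Control TSB after PBS. Its 2 highest values belonged to the arrays that stood apart, and its estimate was -0.20 (CI -0.67 to 0.27, adjusted p = 0.741). Egfl7, a secreted endothelial matrix protein, read 15.92, 16.31 and 16.44 with CAV1 TSB and 16.09, 16.31 and 16.39 with Control TSB after bleomycin, against 16.79 and 16.75 with CAV1 TSB and 16.55 and 16.25 with Control TSB after PBS. Only the CAV1 TSB groups did not overlap, and the estimate of -0.31 had an adjusted p of 0.0584. Ptprb (VE-PTP, the phosphatase of TIE2), Icam2 (an adhesion molecule also on leukocytes), Tek (TIE2, the angiopoietin receptor) and Robo4 (a vessel-stabilising receptor) had estimates of -0.44, -0.40, -0.47 and -0.27 and adjusted p of 0.0518, 0.0656, 0.0691 and 0.0742. The remaining general genes had adjusted p of 0.159 or above, the flow-responsive Nos3 (-0.04) and Klf2 (-0.12) having the estimates nearest 0.

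Arterial genes did not share a direction. Dll4, the Notch ligand of arterial endothelium, read 8.38, 8.79 and 9.09 with CAV1 TSB and 8.56, 8.94 and 9.01 with Control TSB after bleomycin, against 9.22 and 9.03 with CAV1 TSB and 8.8 and 9.98 with Control TSB after PBS. PBS Control TSB array 2 was the highest, the groups overlapped, and the estimate of -0.44 had an adjusted p of 0.167. Gja5 (connexin 40) read 9.98, 10.21 and 11.08 with CAV1 TSB and 10.07, 10.27 and 10.41 with Control TSB after bleomycin, against 10.12 and 10.39 with CAV1 TSB and 10.27 and 10.66 with Control TSB after PBS. The groups overlapped and its estimate was -0.07 (adjusted p = 0.892). Gja4 (connexin 37) had an estimate of 0.03 with an interval of -0.57 to 0.63. Sox17, a transcription factor of arterial identity, read 10.56, 10.79 and 10.86 with CAV1 TSB and 10.67, 10.89 and 11.01 with Control TSB after bleomycin, against 10.78 and 10.98 with CAV1 TSB and 10.51 and 10.36 with Control TSB after PBS; only the PBS Control TSB arrays stood apart, below all others, and the estimate over both blockers was 0.16 (adjusted p = 0.266). The median over the 4 was -0.02, and it was 0.08 without PBS Control TSB array 2 and -0.185 without PBS Control TSB array 1.

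None of the 3 venous and large vessel genes was called. Vwf (von Willebrand factor, stored in large vessel endothelium and platelets) read 15.24, 15.28 and 15.42 with CAV1 TSB and 15.04, 15.16 and 15.28 with Control TSB after bleomycin, against 15.07 and 15.29 with CAV1 TSB and 15.04 and 15.29 with Control TSB after PBS. These ranges overlapped, and the estimate was 0.07 (CI -0.07 to 0.21). Selp (P-selectin, also stored in platelets) read 7.48, 7.84 and 7.97 with CAV1 TSB and 7.57, 8.02 and 8.21 with Control TSB after bleomycin, against 7.45 and 7.98 with CAV1 TSB and 8.15 and 8.0 with Control TSB after PBS. These overlapped too, with an estimate of -0.02 (CI -0.29 to 0.24). Vcam1, a leukocyte adhesion molecule induced on activated endothelium and also made by other cells, read 11.81, 11.95 and 12.17 with CAV1 TSB and 12.00, 12.10 and 12.23 with Control TSB after bleomycin, against 11.78 and 12.24 with CAV1 TSB and 11.80 and 11.54 with Control TSB after PBS. Both PBS Control TSB arrays were below all bleomycin arrays and the PBS CAV1 TSB arrays were not, and the estimate of 0.19 did not pass (adjusted p = 0.249). All 7 platelet markers had negative estimates (-0.50 to -0.11) and none was called; their array mean was 9.51 to 10.40 and 9.37 to 9.90 in bleomycin lungs with CAV1 TSB and Control TSB, against 10.01 to 10.23 and 10.05 to 10.24 in PBS lungs. Their part in Vwf and Selp was not tested.

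Lymphatic genes had no call either. Lyve1 (a hyaluronan receptor of lymphatic endothelium and of some tissue macrophages) read 10.83, 11.51 and 12.22 with CAV1 TSB and 11.26, 11.41 and 12.02 with Control TSB after bleomycin, against 12.29 and 12.12 with CAV1 TSB and 12.00 and 11.42 with Control TSB after PBS. The PBS CAV1 TSB arrays were high, the groups overlapped, and the estimate was -0.46 (adjusted p = 0.226). Flt4 (VEGFR3, the receptor for VEGF-C) read 6.97, 7.16 and 8.44 with CAV1 TSB and 6.59, 7.22 and 7.51 with Control TSB after bleomycin, against 7.16 and 7.23 with CAV1 TSB and 7.0 and 8.97 with Control TSB after PBS. The array at 8.97 and that at 8.44 were the arrays that stood apart (estimate -0.36, CI -1.01 to 0.29), and without both the estimate was 0.02. Prox1, the master transcription factor of lymphatic identity, read 6.02, 6.20 and 6.39 with CAV1 TSB and 6.15, 6.22 and 6.28 with Control TSB after bleomycin, against 6.26 and 6.06 with CAV1 TSB and 6.03 and 6.21 with Control TSB after PBS, near the low end of the array. The groups overlapped, with an estimate of 0.08 (CI -0.07 to 0.23). Mmrn1 (multimerin 1, of lymphatic endothelium and platelets) read 9.70, 9.83 and 10.07 with CAV1 TSB and 9.91, 10.01 and 10.19 with Control TSB after bleomycin, against 9.78 and 9.87 with CAV1 TSB and 9.85 and 9.15 with Control TSB after PBS. PBS Control TSB array 2 was the lowest, and the estimate of 0.29 did not pass (adjusted p = 0.135). The median over the 4 was -0.14, and 0.07 without both arrays that stood apart.

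Further vessel genes and ligands, none among the 40, were read in the same comparison. These lists were also chosen with earlier results of these data known. When arrays were left out, the share of all genes called lower moved as well, as given above. Of 13 further capillary genes measured, 8 fell (61.5%, beside 1.68% of all genes) and none rose (beside 4.25%), with a median of -0.44. They were Clec14a (-0.71, a C-type lectin of endothelium), Cyp4b1 (-0.70, a cytochrome P450), Hilpda (-0.57, a hypoxia-induced lipid droplet protein), Kitl (-0.51, KIT ligand), Tmem100 (-0.45, a BMP9/ALK1 target), Tbx2 (-0.44, a T-box transcription factor), Hpgd (-0.32, the prostaglandin-degrading enzyme) and Ramp2 (-0.30, the adrenomedullin receptor subunit). Several of these genes are also made by other lung cells. The count was 0 without PBS CAV1 TSB array 1, 2 without PBS CAV1 TSB array 2, 4 without PBS Control TSB array 2 and 8 without both arrays that stood apart.

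Of 12 further arterial genes, Fbln5 (0.40, an elastic fibre protein) and Heyl (0.36, a Notch target) rose, beside 4.25% of all genes. Sema3g (-0.56, a semaphorin), Bmx (-0.48, a tyrosine kinase) and Efnb2 (-0.32, ephrin B2) fell, beside 1.68% of all genes. Of 10 further venous and activation genes, 3 rose (beside 4.25% of all genes) and none fell (beside 1.68%). Those that rose were Ackr1 (0.76, a chemokine-binding receptor of venules), Lrg1 (0.76, a secreted glycoprotein) and Bst1 (0.39, an ectoenzyme). None of 7 further lymphatic genes was called. Of 11 ligands, 3 fell (27.3%, beside 1.68% of all genes): Angpt2 (-0.58, the TIE2 ligand that endothelium secretes, adjusted p = 0.000886), Edn1 (-0.46, endothelin 1, the ligand of Ednrb) and Gdf2 (-0.32, BMP9, the ligand of Acvrl1). The arterial count of 5 was 1 without PBS CAV1 TSB array 1, 2 without array 2 of that group, and 3 without either PBS Control TSB array, bleomycin Control TSB array 1 or bleomycin CAV1 TSB array 4 or 5. The venous count of 3 was 0 without PBS CAV1 TSB array 1, and 1 without PBS CAV1 TSB array 2, PBS Control TSB array 1, bleomycin Control TSB array 2 or bleomycin CAV1 TSB array 4. The ligand count of 3 was 1 without either PBS CAV1 TSB array or PBS Control TSB array 1.

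**Figure D4:**
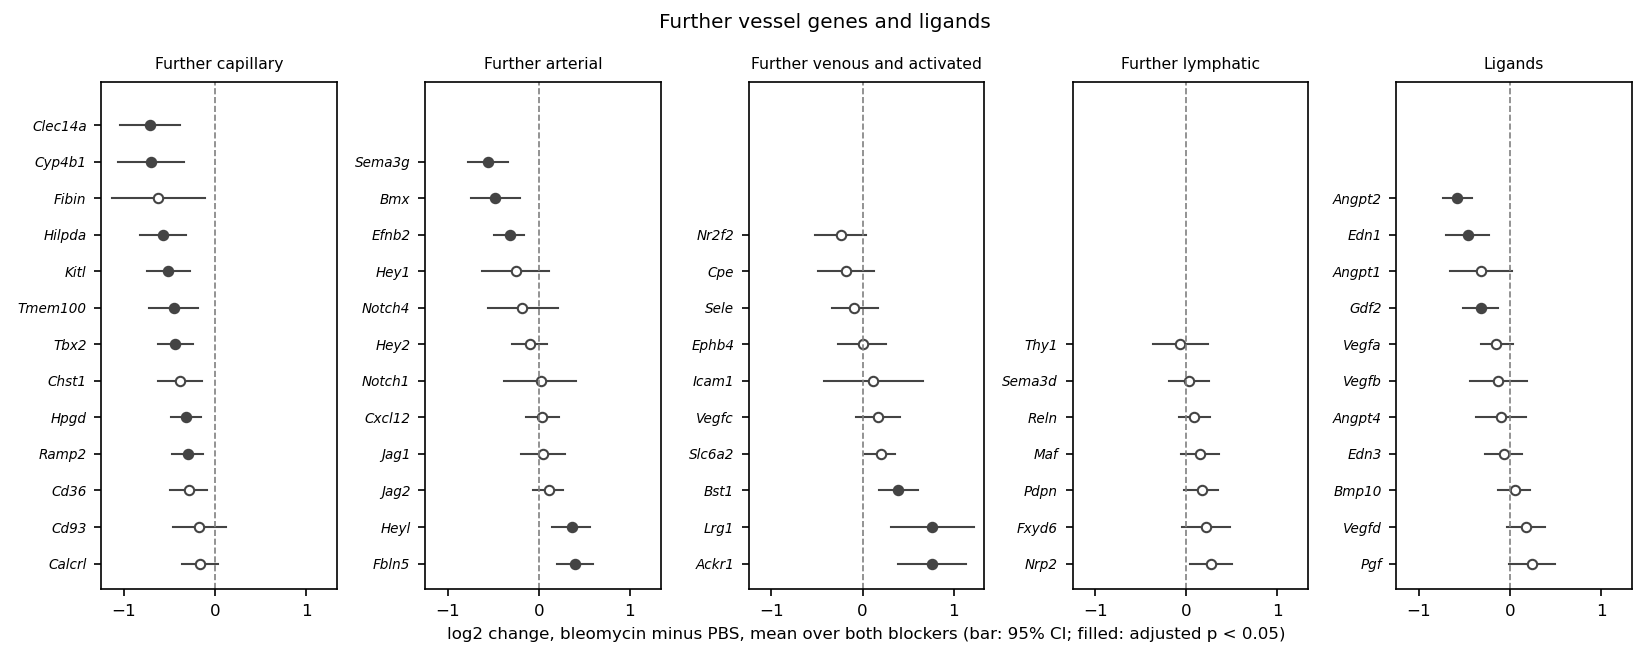
Log2 change (bleomycin minus PBS, mean over both blockers) with 95% confidence intervals for further capillary, arterial, venous and activated, and lymphatic genes and for ligands of endothelial receptors; filled points passed an adjusted p of 0.05. All 13 capillary genes lie left of 0, while the other lists have points on both sides.

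Within each blocker, bleomycin lungs were next compared with PBS lungs; both comparisons rest on 2 PBS arrays. With CAV1 TSB, Kdr was the only one of the 40 genes called (-0.65, adjusted p = 0.0494), 2.5% of them beside 0.172% of all genes tested in that direction. With Control TSB, Acvrl1 fell (-0.61, adjusted p = 0.0432) and Sox17 rose (0.44, adjusted p = 0.0414), each 2.5% of the 40 beside 0.448% and 1.96% of all genes. For Sox17 all bleomycin Control TSB arrays were above both PBS Control TSB arrays, and for Acvrl1 all were below. Medians over the 40 were -0.27 with CAV1 TSB and -0.24 with Control TSB, and the Control TSB median was -0.10 without PBS Control TSB array 2. Skeletal muscle markers differed in these comparisons too: the median over 12 was 3.12 with CAV1 TSB (10 higher at an unadjusted p under 0.05) and -1.88 with Control TSB (4 lower at that level), with none called. With the skeletal muscle mean as a covariate, 0 endothelial genes were called under either blocker. Of all genes, 0.0443% were then called higher and 0.00493% lower with CAV1 TSB, and 0.946% and 0.217% with Control TSB.

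These calls depended on which arrays were kept. The Kdr call held in 3 of 16 fits that left out 1 array, and its adjusted p reached 0.55 without PBS CAV1 TSB array 1. Acvrl1 and Sox17 under Control TSB each held in 4 of 16, with adjusted p of up to 0.312 and 0.335 without PBS Control TSB array 2. The count under CAV1 TSB was 6 without bleomycin CAV1 TSB array 1 (all lower, 15.0% of the 40 beside 1.37% of all genes). It was 0 without any other bleomycin array, beside 0.0394% to 0.266% of all genes higher and 0.00985% to 0.118% lower. Kdr was at -0.56 without PBS CAV1 TSB array 1 and at -0.73 without array 2 of that group. Counts under Control TSB were 4 without bleomycin CAV1 TSB array 1 (beside 2.78% of all genes higher and 0.630% lower) and 3 without array 6 of that group (1.94% and 0.478%). The count was 1 without bleomycin CAV1 TSB array 5 (1.63% and 0.355%) or bleomycin Control TSB array 3 (1.27% and 0.251%) or 5 (1.04% and 0.177%). It was 0 without any other bleomycin array, beside 0.630% to 1.92% of all genes higher and 0.0985% to 0.374% lower. Without PBS Control TSB array 2, Acvrl1 was at -0.55 and Sox17 at 0.36. Sox17 has more than 1 spot, and with the mean of its spots its change was 0.35 (adjusted p = 0.214).

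Other genes came close to the threshold. With CAV1 TSB, Acvrl1 (-0.68), Bmpr2 (-0.66), Apln (-0.55) and Egfl7 (-0.50) had adjusted p of 0.0511, 0.0557, 0.0634 and 0.0886. With Control TSB, Bmpr2 (-0.53), Mmrn1 (0.53), Vcam1 (0.43) and Ednrb (-0.62) had adjusted p of 0.0727, 0.075, 0.0763 and 0.0773. At an unadjusted p under 0.05, 16 of the 40 were lower and 0 higher with CAV1 TSB (beside 7.67% and 7.15% of all genes), and 9 lower and 3 higher with Control TSB (beside 5.41% and 10.5%).

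Whether the bleomycin change differed between blockers was tested by the interaction. None of the 40 genes was called, as was none of all genes tested (0%). At an unadjusted p under 0.05, 6 of the 40 were more negative under CAV1 TSB and 0 more positive, beside 6.01% and 3.22% of all genes. The smallest p were those of Sox17 (-0.55, CI -0.86 to -0.23), Vcam1 (-0.48), Mmrn2 (-0.57), Sox7 (-0.66) and Mmrn1 (-0.48), each with an adjusted p of 0.497. Mmrn2 (multimerin 2, an endothelial matrix protein bound by CLEC14A) read 12.70, 12.99 and 13.19 with CAV1 TSB and 12.96, 13.14 and 13.28 with Control TSB after bleomycin, against 13.39 and 13.53 with CAV1 TSB and 13.32 and 12.78 with Control TSB after PBS. Its groups overlapped under Control TSB and not under CAV1 TSB. Sox7 (an endothelial SOX factor) read 10.41, 10.90 and 11.06 with CAV1 TSB and 10.52, 10.80 and 10.90 with Control TSB after bleomycin, against 11.50 and 11.33 with CAV1 TSB and 11.03 and 10.26 with Control TSB after PBS. In Sox7, as in Sox17, a PBS Control TSB array was the lowest of all 16. The interaction count was 10 without PBS Control TSB array 1, where PBS Control TSB array 2 alone stood for its group (4 more positive and 6 more negative, 10.0% and 15.0% of the 40, beside 5.42% and 9.41% of all genes). All 12 skeletal muscle markers (median 4.57) and 10 of 11 squamous markers (median 5.21) had a positive interaction at an unadjusted p under 0.05, and their part in the endothelial values was not tested.

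**Figure D5:**
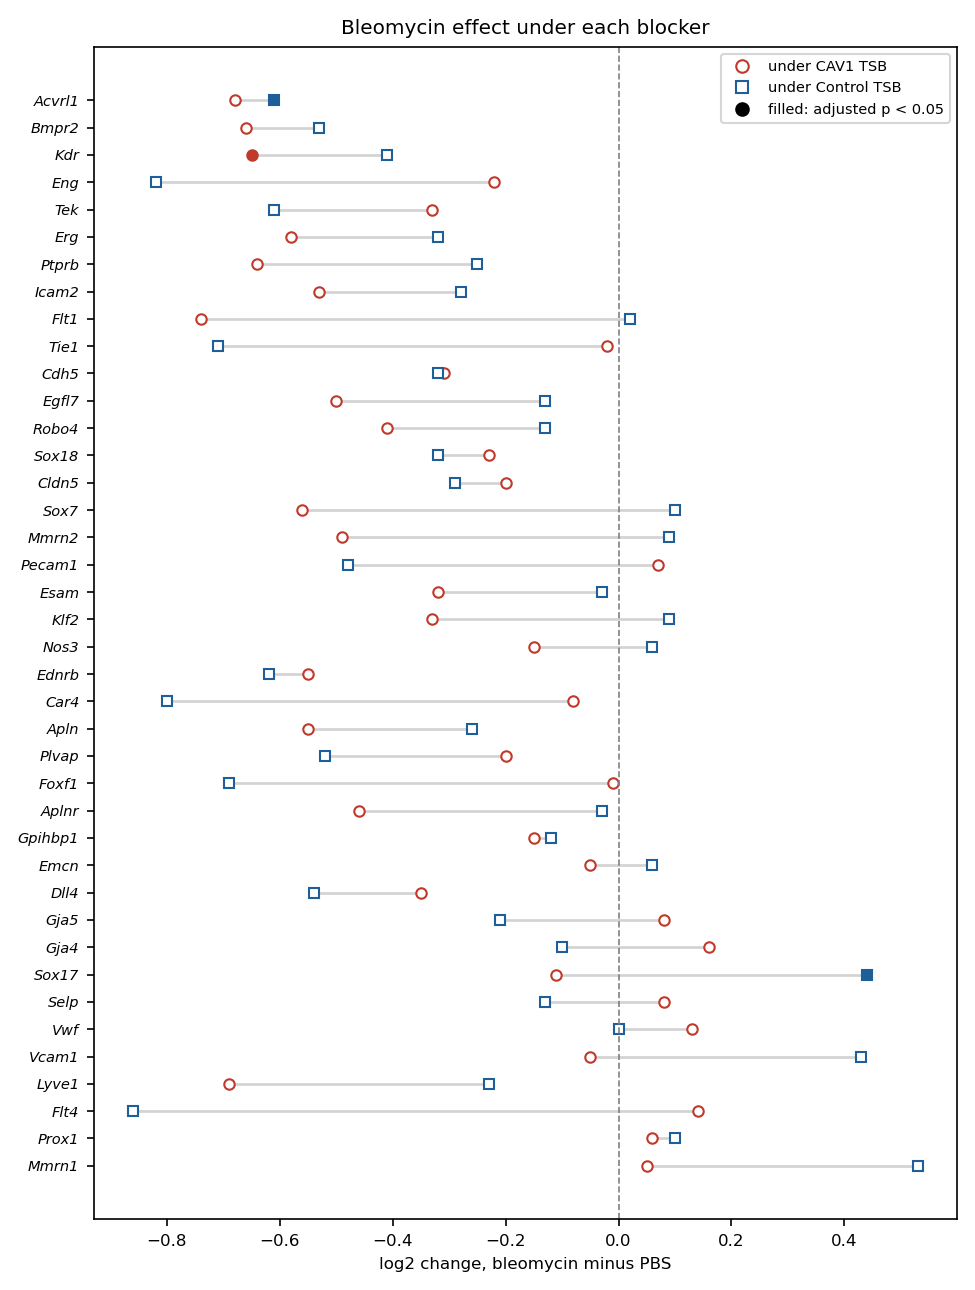
Log2 change (bleomycin minus PBS) of each of the 40 endothelial genes under CAV1 TSB (circles) and under Control TSB (squares); filled symbols passed an adjusted p of 0.05. Acvrl1, Bmpr2 and Kdr lie left of 0 under both blockers, and Sox17, Vcam1 and Mmrn1 lie further right under Control TSB, with no gene called in the test of the difference.

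CAV1 TSB was then compared with Control TSB among bleomycin lungs, with 6 arrays in each group. None of the 40 genes was called, whereas 1.20% of all genes tested were higher and 0.414% lower. Without adjustment, 3 of the 40 were higher and 0 lower at p under 0.05, beside 4.48% and 4.60% of all genes. Bmpr2 had the smallest p of the 40: it averaged 12.07 ± 0.26 with CAV1 TSB and 11.72 ± 0.12 with Control TSB (SD, n = 6 each), a difference of 0.34 (CI 0.13 to 0.56, limma adjusted p = 0.161). Leaving out bleomycin CAV1 TSB array 6 gave 1 call, Bmpr2 (2.5% of the 40, beside 1.23% of all genes higher). With both arrays that stood apart left out, the Bmpr2 difference was 0.41.

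Gpihbp1 and Vwf differed by 0.19 (adjusted p = 0.238) and 0.15 (adjusted p = 0.529), and Ednrb by 0.23 (adjusted p = 0.66). Aplnr had the most negative difference among the 5 genes with the smallest p, -0.27 (CI -0.61 to 0.07, adjusted p = 0.732). Cav1 itself, the transcript the blocker targets, averaged 10.94 ± 0.22 with CAV1 TSB and 10.70 ± 0.18 with Control TSB (SD, n = 6 each), a difference of 0.24 (CI -0.03 to 0.51, limma adjusted p = 0.642). Among the further capillary genes Calcrl, the partner of Ramp2 in the adrenomedullin receptor, was called higher with CAV1 TSB (0.68, SE 0.090, adjusted p = 0.000839).

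Among PBS lungs, CAV1 TSB and Control TSB had 2 arrays each. None of the 40 genes was called, beside 0.276% of all genes higher and 0.0345% lower, and at an unadjusted p under 0.05, 9 were higher and 0 lower, beside 8.26% and 4.55%. The smallest p were those of Sox17 (0.45, adjusted p = 0.221), Sox7 (0.77, adjusted p = 0.256), Bmpr2 (0.47, adjusted p = 0.367), Apln (0.39, adjusted p = 0.374) and Flt1 (0.72, adjusted p = 0.384). For Sox17, Sox7, Bmpr2, Apln and Flt1 both CAV1 TSB arrays were above both Control TSB arrays. These genes were picked by their p in this same comparison, and the share of all genes separated in this way was not counted. Markers of other tissues separated the same 4 arrays: all 12 skeletal muscle markers (median -4.01) and 9 of 11 squamous markers (median -4.47) were lower with CAV1 TSB at an unadjusted p under 0.05, with none called. Their part in the endothelial values was not tested. The count was 10 without PBS Control TSB array 1 (5 higher and 5 lower, each 12.5% of the 40, beside 12.5% and 7.27% of all genes) and 0 without any of the other 15 arrays.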

How the data were processed

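Values were the log2 intensities of the series' value table as the authors deposited them. The submitters' processing notes name limma for this step and give no version. The background correction, slide and scan date were not given in the sources used here. All 16 arrays had nearly the same distribution of values, from 5.39 or 5.41 at the lowest to 18.28 at the highest.

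Of 62976 spots, 31465 carried 1 gene symbol and 31511 none in the platform annotation used here. RefSeq accessions (GRCm38.p6) matched 29036 spots to current symbols, which turned Foxf1a into Foxf1, and coordinates printed with gene names are from the same RefSeq table. For each gene the spot with the highest mean was used; 13 of the 40 genes had more than 1 spot, and in 4 (Nos3, Sox17, Selp and Vcam1) the spots' estimates differed in sign. Genes above the array's 25th percentile in at least 2 arrays were tested, 20304 of 20863, all 40 endothelial genes among them.

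All 16 arrays entered a single model with a mean for each of the 4 groups, fitted by limma 3.58.1 in R 4.3.3 (lmFit and moderated eBayes statistics, two-sided, 12 residual degrees of freedom). P-values were adjusted by the Benjamini-Hochberg method over all genes tested, and genes were called at an adjusted p under 0.05. Intervals are 95% confidence intervals, and ± is the SD between arrays. Depth does not apply to arrays; their number limits the precision. The fit was tested on simulated data.

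Genes described with values were those called in any comparison, the 5 with the smallest p in each comparison, and 18 anchors of the vessel classes; of the further vessel lists, the called genes and up to 2 others. The 40 genes and all lists were chosen with earlier results of these data known. Alternatives covered the filter on dim genes, the mean of a gene's spots, array weights, moderation with a trend and robust settings, centring on the median, a second quantile normalization, models restricted to the arrays compared, a block for the replicate number, a block for earlier and later deposit order, a skeletal muscle covariate, the 11 arrays high in muscle and squamous transcripts, a looser threshold and leaving out arrays. Same-numbered arrays did not deviate together (correlations from -0.69 to 0.436), so the numbers were not treated as pairs.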

Additional observations from a re-analysis of the deposited data

Results flagged for a closer look

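In 8 of 80 examined sets (a gene in a bleomycin group of 6 arrays), 1 array lay so far from the nearest other that its gap, as a share of the range, exceeded Dixon's 95% critical value, which chance gives in about 1 in 20 sets. Bleomycin CAV1 TSB array 6 held 3 of them: Flt4 at 8.44 (next highest 7.31), Pecam1 at 12.19 (next 11.29) and Foxf1 at 9.19 (next 8.46). Bleomycin Control TSB array 6 held 3 others, with Robo4 at 13.13 (next 12.90) and Lyve1 at 12.02 (next 11.48) as the highest and Gja4 at 11.05 (next lowest 12.05) as the lowest. In bleomycin Control TSB array 5, Ednrb was the lowest at 9.28 (next 9.90). In bleomycin Control TSB array 1, Nos3 was the highest at 11.43 (next 11.28). The 80 sets share their arrays and are not independent. The share of such sets over all genes was not counted, so no excess over chance is shown.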

How the results depend on the processing

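None of the 30 estimates followed across the alternatives (those called or among the 5 smallest p of a comparison) changed sign; other genes and class medians did. Over both blockers, Flt4 was at -0.36 and at 0.02 without both arrays that stood apart, and with 1 array left out the lymphatic median ran from -0.16 to 0.12 and the arterial median from -0.185 to 0.08. The arterial median under Control TSB ran from -0.489 to 0.208, and the interaction median over the 40 from -0.159 to 0.01. Over both blockers (5 of the 40 genes called), array weights gave 3, an adjusted p under 0.1 gave 11, leaving out both arrays that stood apart gave 12, and leaving out 1 array gave 3 to 11. Of all genes, 1.68% were called lower over both blockers in the main fit and 0.320% with array weights. That share rose without both arrays that stood apart, so these counts moved together with the calls over all genes. For an adjusted p under 0.1 it was not counted. Under CAV1 TSB, with 1 called (0.345% and 0.172%), the 50th percentile filter gave 3 (0.689% and 0.377%). The mean of a gene's spots gave 2 (0.384% and 0.231%), and trend and robust moderation 2 (0.360% and 0.163%). Array weights gave 15 (6.55% and 6.81%), and the compared arrays only 0 (0% and 0%). Deposit order as a block gave 3 (0.488% and 0.374%), and the skeletal muscle covariate 0 (0.0443% and 0.00493%). An adjusted p under 0.1 gave 5, with no share over all genes counted, and leaving out 1 array gave 0 to 6. Under Control TSB (2 called), trend and robust moderation gave 1, array weights 0, the compared arrays only 1, deposit order as a block 4, the skeletal muscle covariate 0, the 11 arrays high in muscle and squamous transcripts 0, an adjusted p under 0.1 gave 6, leaving out both arrays that stood apart 0, and leaving out 1 array 0 to 13. Between blockers after bleomycin, with 0 called (1.20% and 0.414%), array weights gave 1, Bmpr2 (1.81% and 1.11%), and leaving out 1 array gave 0 to 1. Leaving out 1 array gave 0 to 10 between blockers after PBS and 0 to 10 for the interaction. The cause of these shifts was not tested. The replicate number as a block, which the pairing check did not support as a pairing, gave 0 calls over both blockers, 0 under CAV1 TSB and 0 under Control TSB; Acvrl1, Bmpr2, Kdr, Ednrb and Apln were then at -0.54, -0.49, -0.43, -0.42 and -0.36 with adjusted p of 0.191, 0.177, 0.191, 0.239 and 0.315. Among all genes it called 7 higher and 2 lower over both blockers. Where leaving out an array left 1 PBS array in a group, its spread was taken from the other groups. The 2 PBS arrays per blocker limit every comparison with PBS, and no detection marks were used, so whether Prox1 was above background was not tested.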

Other observations

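Some endothelial genes were high or low together in the 2 arrays that stood apart. The genes below were picked by these same values, and the share of all genes that moved alike was not counted. PBS Control TSB array 2 also had the lowest median correlation with the other arrays over all genes tested. Whether the pattern is particular to endothelial genes was not tested. PBS Control TSB array 2 exceeded array 1 of its group by 1.98 for Flt4, 1.56 for Foxf1, 1.54 for Tie1, 1.48 for Eng, 1.04 for Pecam1 and 0.96 for Gja4, and bleomycin CAV1 TSB array 6 exceeded the median of the other 5 arrays of its group by 1.40, 0.94, 1.24, 0.81, 1.12 and 1.25 for the same genes in that order. Flt1, Sox7 and Lyve1 were lower by 0.98, 0.77 and 0.58 in PBS Control TSB array 2 and by 0.58, 0.52 and 0.81 in bleomycin CAV1 TSB array 6. No gene of the 40 moved by over 0.5 in opposite directions in the 2 arrays. These genes, those over 0.5 apart in both arrays, come from the general, capillary, arterial and lymphatic classes.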
